A study of Mus musculus with 4 samples.

Results

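Haemoglobin and erythroid transcripts were followed through RNA-seq libraries of mouse left ventricle as a reading of the blood left in each piece of heart. The set held 6 genes, taken by symbol from the 38355 genes of the count table: the alpha-globin genes Hba-a1 and Hba-a2, the adult beta-globin genes Hbb-bs and Hbb-bt, the erythroid heme synthesis gene Alas2, and Slc4a1, which encodes the band 3 anion exchanger of the red cell membrane. Of these 6 genes, 5 had counts and 4 passed the filter on low counts. Each library came from the left ventricular free wall of a different untreated mouse. Per the labels, the transgenic (TG) mice carried VSFP2.3, a fluorescent voltage indicator targeted to cardiomyocytes according to the series title, and the wild-type (WT) mice did not. WT 1 and TG 1 were males of 35 weeks, WT 2 and TG 2 were females of 19 weeks, and all 4 had the same parents. The study was designed to look for toxicity of the transgene in the heart. The promoter that drives the transgene, the strain background and whether the hearts were rinsed of blood are not given in the sources used here.

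Mature mammalian red cells have no nucleus, and the RNA in blood that encodes haemoglobin comes mostly from reticulocytes, the young red cells that still carry messenger RNA from the marrow. Haemoglobin joins alpha and beta chains, each holding a heme, and Alas2 makes the first committed step of heme synthesis in the erythroid lineage, while other tissues use Alas1. The working heart makes its own oxygen-binding globin, myoglobin (Mb), in cardiomyocytes, so globin RNA of the red cell type in ventricle is usually read as blood in the vessels.

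The globin genes come as copies that are near-identical in coding sequence. The last 240 bases of the coding sequences are shown because they hold the only coding difference between copies. Transcript bases outside the coding sequence, which also bear on assigning reads to a gene, are not shown. Sequences were read from GENCODE vM21 transcripts of the mm10 assembly (GRCm38), positions are counted from 1 at the A of the start codon, and a capital marks the base that differs from the copy.
Hba-a1, coding bases 187 to 426: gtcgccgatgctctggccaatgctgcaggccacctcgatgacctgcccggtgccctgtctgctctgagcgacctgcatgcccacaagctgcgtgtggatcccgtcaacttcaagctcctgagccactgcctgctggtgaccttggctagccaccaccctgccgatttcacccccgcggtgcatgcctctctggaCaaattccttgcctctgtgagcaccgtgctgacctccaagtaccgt
Hbb-bs, coding bases 202 to 441: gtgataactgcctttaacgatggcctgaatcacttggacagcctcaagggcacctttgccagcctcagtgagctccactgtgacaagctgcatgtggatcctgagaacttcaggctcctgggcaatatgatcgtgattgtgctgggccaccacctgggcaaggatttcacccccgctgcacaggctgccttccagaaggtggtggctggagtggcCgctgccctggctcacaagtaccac
The coding sequence of Hba-a2 differed from that of Hba-a1 at 1 of 426 bases (C381T, 99.8% identity), and that of Hbb-bt differed from that of Hbb-bs at 1 of 441 bases (C417T, 99.8% identity). The stretches around these bases, from position 361 to 401 in the alpha and from 397 to 437 in the beta genes, are set side by side.
Hba-a1: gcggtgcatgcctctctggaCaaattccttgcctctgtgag
Hba-a2: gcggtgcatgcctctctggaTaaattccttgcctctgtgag
Hbb-bs: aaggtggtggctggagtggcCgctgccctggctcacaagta
Hbb-bt: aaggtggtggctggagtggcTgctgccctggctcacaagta
Of the 100-base windows of the main transcript, 43.5% occurred in no other gene for Hba-a1, 25.5% for Hba-a2, 37.4% for Hbb-bs and 45.2% for Hbb-bt. For Alas2 the share was 89.0% and for Slc4a1 100%. The levels of the globin genes are therefore uncertain where the counting could split or drop reads shared by copies. Fold changes of the summed copies are given with those of the single genes.

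In mm10 coordinates, Hba-a1 (ENSMUSG00000069919) lies on chromosome 11 from 32283511 to 32284465 and Hba-a2 (ENSMUSG00000069917) on chromosome 11 from 32296489 to 32297298, both on the plus strand with 3 exons in the main transcript. Hbb-bs (ENSMUSG00000052305) lies on chromosome 7 from 103826534 to 103828096 and Hbb-bt (ENSMUSG00000073940) on chromosome 7 from 103812524 to 103813996, both on the minus strand with 3 exons. Alas2 (ENSMUSG00000025270) spans 150547375 to 150570638 on the plus strand of chromosome X with 11 exons. Its locus overlaps Apex2 and Mir3620 on the opposite strand, and reads from overlapping genes cannot be told apart if the counting ignored strand. Slc4a1 (ENSMUSG00000006574) spans 102348824 to 102366203 on the minus strand of chromosome 11 with 20 exons.

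Gene totals ran from 14158440 to 16762713 counts per library, so that 3 counts, the most that a count of 0 allows, stood for 0.182 to 0.213 counts-per-million units (CPM). These limits and all counting intervals cover counting error only and leave out differences between mice. The labels name no molecular identifiers, so repeated reads of 1 molecule cannot be told apart, and the intervals may be too narrow. CPM values use library sizes scaled by trimmed means (TMM), whose factors ran from 0.934 in WT 2 to 1.06 in WT 1 and TG 2. WT 2 stood apart in composition, with 4.09% of its counts on Yam1 against 0.0141% to 0.0476% in the other 3 libraries. The ventricular light chain gene Myl2 was at 7666 to 7938 CPM in the 4 libraries, so this marker of ventricular muscle was abundant in each.

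The erythroid transcripts were highest in WT 1 and lowest in TG 2 for each of the 5 genes with counts. The alpha-globin gene Hba-a1 had 1656 counts (100.6 CPM) in WT 1, 460 (29.4 CPM) in WT 2, 469 (33.3 CPM) in TG 1 and 326 (21.6 CPM) in TG 2. WT 1 stood 3.02-fold above the next library, and TG 1 and WT 2 differed by 1.13-fold (95% counting interval 0.997 to 1.29), which is within counting error. Hba-a2, the neighbouring copy with the same 3-exon layout, was listed at 0 counts in all 4 libraries. As a share of both alpha genes, 0 of 326 counts in TG 2 allows up to 0.920% and 0 of 1656 in WT 1 up to 0.181%. Why 1 copy took all counts was not tested, and Hba-a1 is best read as the alpha-globin level as the table records it.

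The beta-globin genes carried most of the signal. Hbb-bs had 8309 counts (504.7 CPM) in WT 1, 1940 (123.9 CPM) in WT 2, 2193 (155.9 CPM) in TG 1 and 1455 (96.5 CPM) in TG 2. WT 1 was 3.24-fold above TG 1 (95% counting interval 3.09 to 3.39) and 5.23-fold above TG 2 (4.95 to 5.53), and the other 3 libraries lay within 1.61-fold of each other. Hbb-bt, the other adult beta gene of the set, had 1242 counts (75.4 CPM) in WT 1, 297 (19.0 CPM) in WT 2, 443 (31.5 CPM) in TG 1 and 256 (17.0 CPM) in TG 2. WT 1 was 2.40-fold above TG 1 (2.15 to 2.67), and WT 2 and TG 2 differed by 1.12-fold (0.945 to 1.32), within counting error.

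Alas2, the erythroid 5-aminolevulinate synthase, had 591 counts (35.9 CPM) in WT 1, 158 (10.1 CPM) in WT 2, 196 (13.9 CPM) in TG 1 and 103 (6.83 CPM) in TG 2. WT 1 was 2.58-fold above TG 1 (95% counting interval 2.19 to 3.03) and 5.25-fold above TG 2 (4.26 to 6.48). Slc4a1 was near the limit of detection, at 18 counts in WT 1 (95% Poisson interval 10.7 to 28.4), 3 in WT 2 (0.619 to 8.77), 9 in TG 1 (4.12 to 17.1) and 2 in TG 2 (0.242 to 7.22). Its order of libraries was that of the other genes, but the intervals of WT 1 and TG 1 overlapped, as did those of TG 1, WT 2 and TG 2. In bulk tissue, fewer cells of a type and less RNA per cell cannot be told apart.

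All 4 genes that passed the filter fell in the order WT 1, TG 1, WT 2, TG 2, an order found in 3.05% of the 14189 tested genes. All 4 were also at least 2-fold higher in WT 1 than in each other library, which held for 0.613% of the tested genes. At least 3-fold, a rule met by 0.0987% of the tested genes, held for Hbb-bs and Hba-a1. Slc4a1 and Hba-a2 were not tested. As 1 library carries each of these patterns, they describe these mice and no group.

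**Figure D1:**
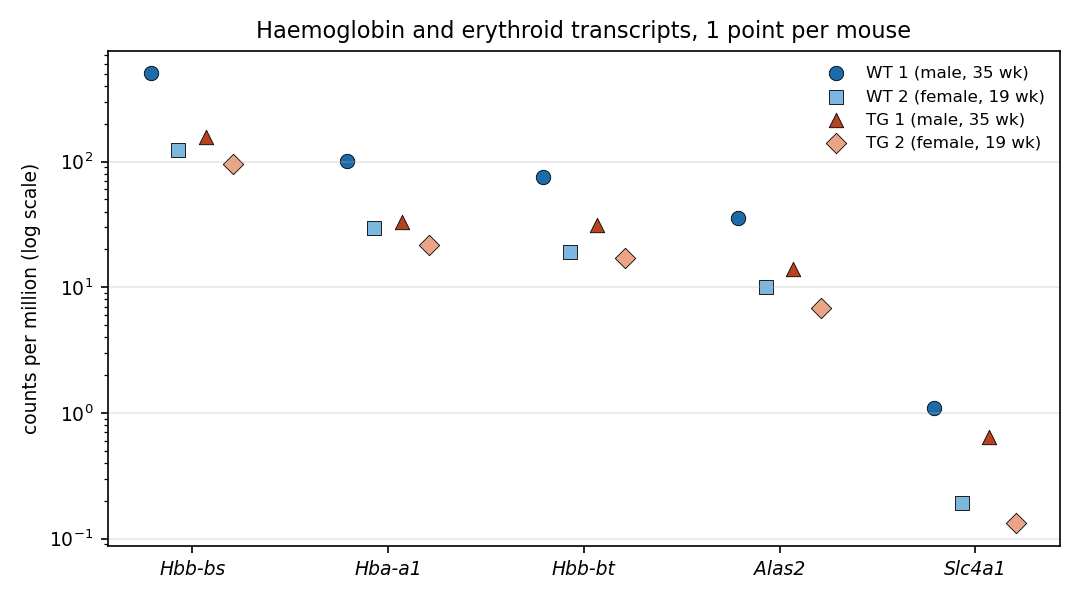
CPM (y axis, log scale) of Hbb-bs, Hba-a1, Hbb-bt, Alas2 and Slc4a1 (x axis), with 1 point per mouse; Hba-a2 is left out because it was listed at 0. WT 1 (dark blue circle) is the highest point for each gene, at 504.7 CPM for Hbb-bs, and TG 2 (pale diamond) the lowest.

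Per kilobase of exon, the genes differed far more than the libraries did. On the scale of CPM per kilobase, the level of Hbb-bs ran from 126 in TG 2 to 657 in WT 1, that of Hba-a1 from 26.6 to 124, and that of Hbb-bt from 24.2 to 107. On the same scale, Alas2 ran from 2.84 to 14.9 and Slc4a1 from 0.0271 to 0.224. The heart's own globin gene Mb, by contrast, ran from 6879 to 7488 CPM per kilobase. The red cell globins were thus below myoglobin in every library.

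The make-up of the erythroid counts varied much less than their sum. All 6 genes together took 0.0762% of the gene counts in WT 1, 0.0170% in WT 2, 0.0223% in TG 1 and 0.0151% in TG 2. Globins were 93.8% to 95.1% of these counts in the 4 libraries. Alas2 was 5.002% of them in WT 1, 5.53% in WT 2, 5.92% in TG 1 and 4.81% in TG 2, and Hba-a1 was 14.8% to 17.1% of the globin counts. The share of Hbb-bt in the beta-globin counts was 13.0% in WT 1 (95% Wilson interval 12.3 to 13.7), 13.3% in WT 2 (11.9 to 14.7), 16.8% in TG 1 (15.4 to 18.3) and 15.0% in TG 2 (13.4 to 16.7). Both TG libraries were above both WT libraries in this share, and the interval of TG 1 lay above both WT intervals, while that of TG 2 overlapped both WT intervals. With 2 mice per genotype, the smallest p that a two-sided exact permutation test can give is 0.333, and the share was not tested between genotypes.

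**Figure D2:**
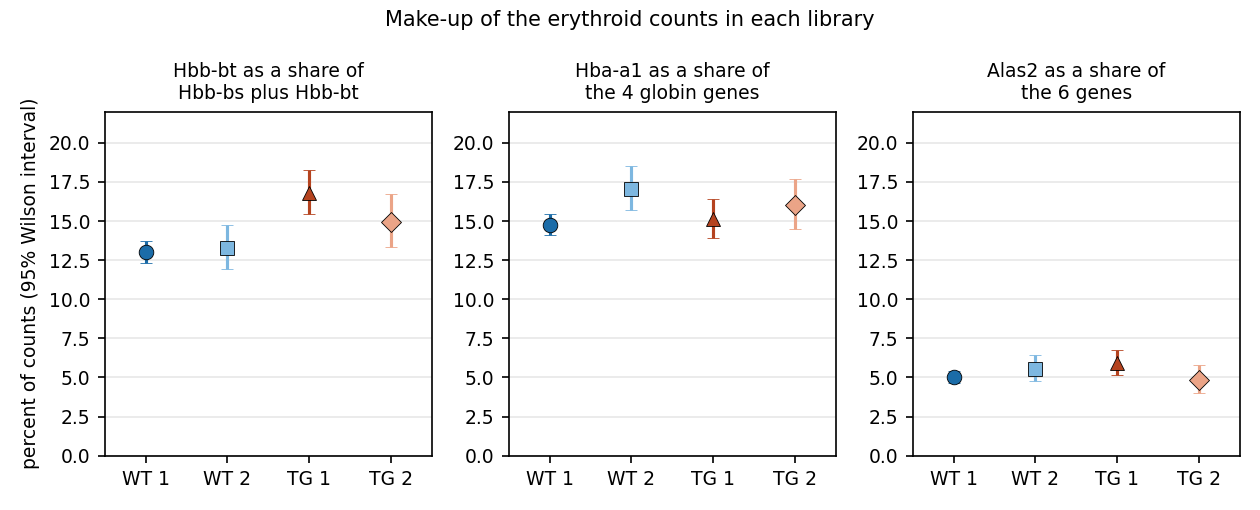
Shares of the erythroid counts in each library (y axis, percent of counts; points with 95% Wilson intervals, which cover counting error only), for Hbb-bt among the beta-globin counts, Hba-a1 among the globin counts and Alas2 among the counts of all 6 genes. Each share keeps to a narrow range, such as 4.81% to 5.92% for Alas2, although the sum of the counts differs up to 5.05-fold between libraries.

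The promoter windows of the 4 tested genes are shown, and they share a feature that can be read from sequence. Whether it bears on the pattern of these genes across libraries was not tested. The 250 bases before the RefSeq start (GRCm38.p6) are written 5′ to 3′ along the gene, with capitals for matches on either strand to GATAA (extended where it reads NGATAAG), CCNCNCCC (a form of the CACCC box), CCAAT or ATATAA. The windows are chr11:32283422-32283671 plus strand for Hba-a1, chr7:103827929-103828178 minus strand for Hbb-bs, chr7:103813924-103814173 minus strand for Hbb-bt and chrX:150547167-150547416 plus strand for Alas2.
Hba-a1: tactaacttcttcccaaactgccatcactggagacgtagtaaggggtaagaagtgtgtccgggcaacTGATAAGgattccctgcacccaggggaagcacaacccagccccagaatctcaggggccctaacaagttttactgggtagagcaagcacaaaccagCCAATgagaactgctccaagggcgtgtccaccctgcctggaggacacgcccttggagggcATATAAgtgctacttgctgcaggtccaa
Hbb-bs: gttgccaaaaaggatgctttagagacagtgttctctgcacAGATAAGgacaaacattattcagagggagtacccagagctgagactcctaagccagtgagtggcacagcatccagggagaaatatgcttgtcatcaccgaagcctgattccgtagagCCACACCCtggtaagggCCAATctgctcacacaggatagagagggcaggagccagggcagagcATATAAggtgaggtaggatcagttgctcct
Hbb-bt: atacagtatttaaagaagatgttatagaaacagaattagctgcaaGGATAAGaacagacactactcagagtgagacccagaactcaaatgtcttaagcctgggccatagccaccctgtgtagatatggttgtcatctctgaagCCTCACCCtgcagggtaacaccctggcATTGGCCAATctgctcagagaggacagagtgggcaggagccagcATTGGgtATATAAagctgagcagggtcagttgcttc
Alas2: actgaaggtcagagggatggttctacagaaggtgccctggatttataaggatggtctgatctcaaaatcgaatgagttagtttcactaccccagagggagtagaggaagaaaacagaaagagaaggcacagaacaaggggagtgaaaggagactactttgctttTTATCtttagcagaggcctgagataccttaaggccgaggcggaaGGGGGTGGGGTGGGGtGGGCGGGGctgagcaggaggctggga
Each of the 4 windows held GATAA, the core letters bound by GATA factors, against 22.6% of 32851 mouse promoter windows of the same length. CCNCNCCC was in the windows of Hbb-bs, Hbb-bt and Alas2 (4 partly overlapping matches in Alas2) and not in that of Hba-a1, against 45.9% of all windows. CCAAT and ATATAA were in the 3 globin windows and not in that of Alas2, against 33.8% and 9.10% of all windows. Hbb-bs and Hbb-bt held all 4 of these motifs, as did 69 of all windows (0.210%). The promoter window of Hba-a2 was identical to that of Hba-a1 over the 297 bases compared at an offset of 3 bases, although Hba-a2 was listed at 0. These are matches of letters, and nothing was measured about binding.

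No difference between TG and WT in these genes passed a test adjusted over all genes. Mean levels (± SD, n = 2 per genotype) were 65.0 ± 50.3 CPM in WT and 27.5 ± 8.28 CPM in TG for Hba-a1, and 314 ± 269 and 126 ± 42.0 CPM for Hbb-bs. They were 47.2 ± 39.9 and 24.2 ± 10.3 CPM for Hbb-bt, and 23.0 ± 18.2 and 10.4 ± 5.02 CPM for Alas2. The groups overlapped for all 5 genes with counts, since WT 2 lay below TG 1 each time. Both TG libraries were below both WT libraries for 10.7% and above them for 10.3% of all tested genes, and for none of these 4. In the quasi-likelihood test of edgeR, adjusted over all 14189 genes by the Benjamini-Hochberg method, 0 of the 4 tested genes were called in either direction, and 0.0% of all tested genes were. That fit did not pair libraries by sex and age. At an unadjusted p below 0.05 in it, 0.402% of all genes were higher and 0.296% lower in TG, none of them one of these 4. DESeq2 called 3 genes, and edgeR called 6 when WT 1 was left out, again none of these 4.

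The fitted log2 fold change (TG over WT, ± SE, with its 95% interval) was -1.24 ± 0.61 (-2.83 to 0.34) for Hba-a1 and -1.32 ± 0.69 (-3.10 to 0.46) for Hbb-bs. It was -0.96 ± 0.70 (-2.77 to 0.84) for Hbb-bt and -1.15 ± 0.68 (-2.91 to 0.61) for Alas2. The adjusted p of edgeR's test was 1.00 for each, and the intervals take in both a fall of several fold and a small rise. With the copies summed, the fold change was -1.24 (-2.83 to 0.34) for Hba-a1 plus Hba-a2 and -1.27 (-3.05 to 0.52) for Hbb-bs plus Hbb-bt. The median over the 4 single genes was -1.20 on the log2 scale, against -0.01 over all tested genes. Leaving out WT 1 set WT 2, a 19-week female, against TG mice of both sexes and ages. The fold changes were then -0.10 for Hba-a1, 0.03 for Hbb-bs, 0.35 for Hbb-bt and 0.04 for Alas2, and 3 of 4 changed sign. Without WT 2, the library with the Yam1 counts, they were -1.87, -1.999, -1.64 and -1.79.

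Within each pair of one sex and age, the erythroid genes were lower in the TG mouse, by different amounts. In the 35-week males, the log2 ratio of TG 1 to WT 1 was -1.59 for Hba-a1, -1.69 for Hbb-bs, -1.26 for Hbb-bt and -1.36 for Alas2. All 4 were at least 2-fold lower in TG, as were 6.06% of all tested genes. In the 19-week females, the log2 ratio of TG 2 to WT 2 was -0.44 for Hba-a1, -0.36 for Hbb-bs, -0.16 for Hbb-bt and -0.55 for Alas2. None reached a 2-fold difference there, a fall met by 1.68% of all tested genes. The summed level of the set differed by -1.61 on the log2 scale in males (95% counting interval -1.66 to -1.55) and by -0.36 in females (-0.44 to -0.28). Lower in TG in both pairs held for these 4 genes and for 18.6% of all tested genes. For Hbb-bt in females the difference was within counting error, and its log2 ratio was 0.029 with total counts in place of TMM. With 1 mouse per genotype in a pair, these ratios have no replicate check.

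**Figure D3:**
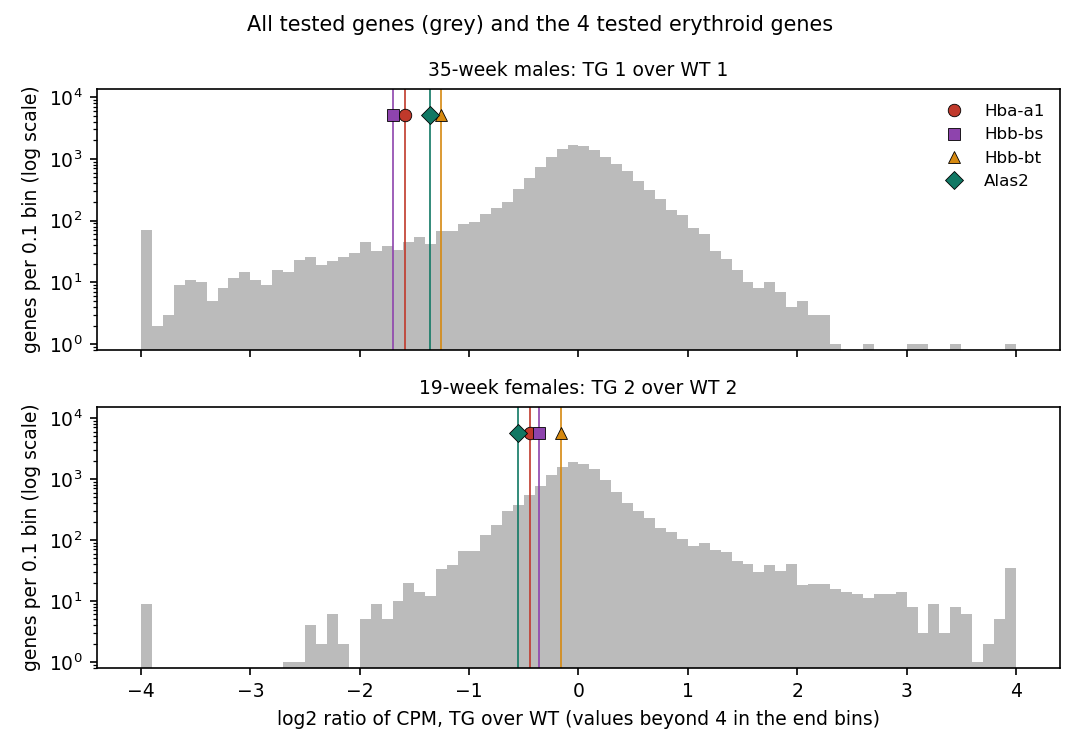
Distribution of the log2 ratio of CPM, TG over WT (x axis), over all 14189 tested genes (grey bars, genes per bin, log scale), for the male pair above and the female pair below; coloured lines mark Hba-a1, Hbb-bs, Hbb-bt and Alas2. In males the 4 genes lie in the left tail, from -1.69 to -1.26, and in females from -0.55 to -0.16, inside the main body of genes.

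The same 4 libraries also differ by sex and age together, and the erythroid genes were higher in the 35-week males. Mean levels were 67.0 CPM in males and 25.5 CPM in females for Hba-a1, 330 and 110 CPM for Hbb-bs, 53.5 and 18.0 CPM for Hbb-bt, and 24.9 and 8.46 CPM for Alas2. Both males were above both females for all 4 tested genes, as for 15.6% of all tested genes. The log2 fold change (males over females, ± SE) was 1.39 ± 0.55 for Hba-a1, 1.58 ± 0.58 for Hbb-bs, 1.57 ± 0.44 for Hbb-bt and 1.56 ± 0.51 for Alas2. None passed edgeR's test after adjustment (adjusted p = 0.999 for each), where 0.0282% of all tested genes were called higher and 0.0% lower in males. At an unadjusted p below 0.05, Hbb-bs, Hbb-bt and Alas2 were higher, as were 1.85% of all tested genes, while 1.77% were lower and none of these 4 was. Without WT 1, the fold changes were 0.39 for Hba-a1, 0.50 for Hbb-bs, 0.81 for Hbb-bt and 0.72 for Alas2. Sex and age cannot be told apart here.

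Set beside the immune genes, the erythroid level followed a different order of libraries. The summed level of the 6 erythroid genes was 718 CPM in WT 1, 183 CPM in WT 2, 235 CPM in TG 1 and 142 CPM in TG 2. The summed level of 46 immune genes (12 of most leukocytes, 18 of macrophages and class II, and 16 of lymphocytes) was 2869 CPM in WT 1, 550 CPM in WT 2, 525 CPM in TG 1 and 2586 CPM in TG 2. WT 1 was thus high in both, WT 2 and TG 1 were low in both, and TG 2 combined the lowest erythroid level with an immune level 1.11-fold below that of WT 1. TG 2 was 4.93-fold above TG 1 in the immune sum and 0.604-fold in the erythroid sum. Erythroid counts per immune count were 0.2502 in WT 1, 0.332 in WT 2, 0.448 in TG 1 and 0.0549 in TG 2.

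Single immune genes were likewise higher in WT 1 and TG 2 than in WT 2 and TG 1. Ptprc, which encodes the leukocyte surface phosphatase CD45, was at 73.3 CPM in WT 1, 11.6 in WT 2, 9.52 in TG 1 and 60.2 in TG 2. Cd74, the class II invariant chain, was at 573, 45.2, 35.0 and 497 CPM in the same order of libraries. The immunoglobulin light chain gene Igkc was at 49.5, 0.639, 0.640 and 256 CPM, and the T cell receptor subunit gene Cd3e at 4.62, 0.511, 0.284 and 4.25 CPM. Of the genes of most leukocytes, 11 of 12 were highest in WT 1 and 1 in TG 2. Of the macrophage and class II genes, 16 of 18 were highest in WT 1 and 2 in TG 2, and of the lymphocyte genes 5 of 16 were highest in WT 1, 10 in TG 2 and 1 in WT 2. The summed lymphocyte level of TG 2 was 3.20-fold above that of WT 1, where the erythroid sum of WT 1 was 5.05-fold above that of TG 2. The immunoglobulin genes Igkc, Igj and Ighm carried this difference, and without them, a choice made after seeing the data, the other 13 lymphocyte genes summed to 44.7 CPM in WT 1, 3.96 in WT 2, 1.92 in TG 1 and 46.0 in TG 2. None of the immune genes was called between TG and WT by edgeR, nor between males and females.

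**Figure D4:**
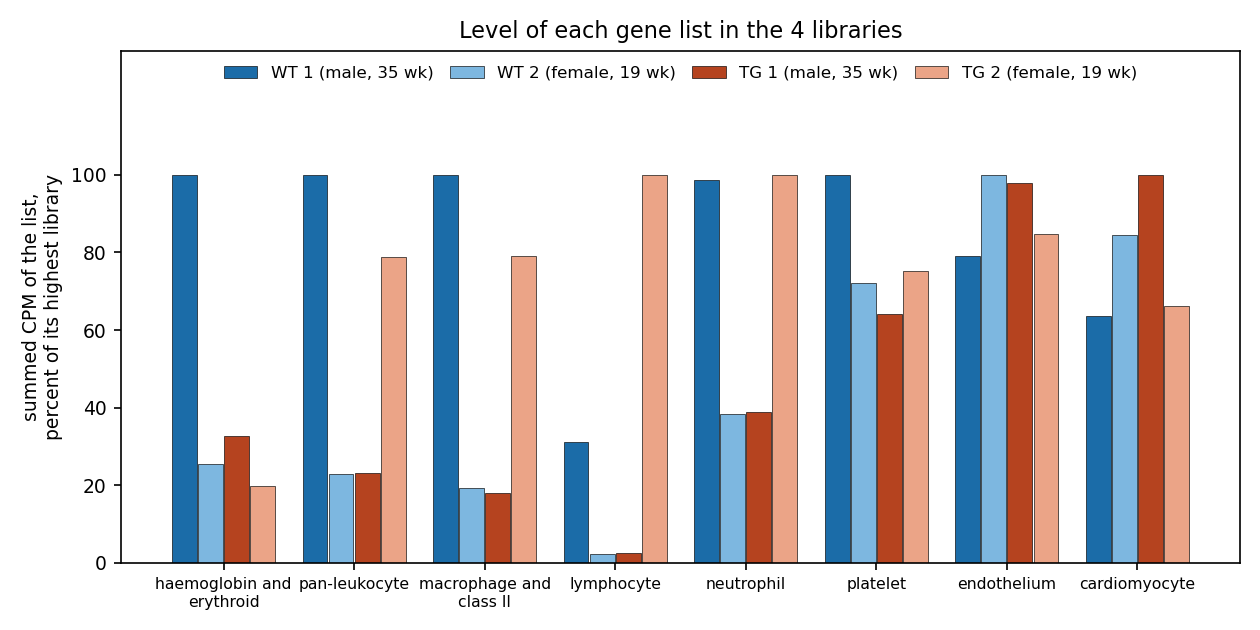
Summed CPM of each gene list as a percent of its highest library (y axis), with 1 bar per mouse. The haemoglobin and erythroid bars are high in WT 1 alone, while the pan-leukocyte, macrophage, lymphocyte and neutrophil bars of TG 2 are also high, and WT 2 and TG 1 are low in each of these lists.

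Other cell types that travel in blood gave small signals. The 13 platelet genes, such as the platelet factor gene Pf4, summed to 21.3 CPM in WT 1, 15.3 in WT 2, 13.6 in TG 1 and 16.0 in TG 2, a range of 1.56-fold against 5.05-fold for the erythroid genes. Pf4 was at 9.35, 4.86, 5.76 and 7.63 CPM, and Ppbp, another platelet chemokine gene, at 4.43, 1.34, 1.21 and 2.12 CPM. Itgb3, between these genes in mean level, was instead lowest in WT 1, at 3.83, 6.45, 4.90 and 4.05 CPM. Of the 13 platelet genes, 6 were highest in WT 1, 4 in WT 2 and 3 in TG 2. The 14 neutrophil genes summed to 9.23 CPM in WT 1, 3.58 in WT 2, 3.62 in TG 1 and 9.35 in TG 2, so that WT 1 and TG 2 were again above WT 2 and TG 1. S100a8, which neutrophils carry in abundance, had 15, 7, 2 and 9 counts, and the B cell receptor gene Cd79a 3, 3, 1 and 4 counts. Whether blood content had a part in the immune differences was not tested.

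The erythroid transcription factor genes Gata1 and Klf1 were near the limit of detection. These factors, which drive the erythroid programme, had 0 to 1 and 0 to 3 counts per library, while 6 of the 10 genes of the erythroid factor list passed the filter on low counts. The erythroid label thus rests on the haemoglobin genes and Alas2, and these 2 factors were at or near 0 counts.

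Genes that red cells share with other tissues did not follow the haemoglobin genes. The 15 other membrane and cytoskeleton genes summed to 1026 CPM in WT 1, 1106 in WT 2, 1220 in TG 1 and 1153 in TG 2, led by the ankyrin gene Ank1 at 365 to 394 CPM. Of the 8 that were tested, 6 had a positive and 2 a negative fold change in TG, and 0 were called. The 8 other heme synthesis genes summed to 557, 647, 559 and 613 CPM in the same order of libraries, with 2 positive, 6 negative and 0 called. Alas1, the housekeeping counterpart of Alas2, was at 171 CPM in WT 1, 248 in WT 2, 175 in TG 1 and 249 in TG 2, and Fech, which inserts iron into heme, at 152 to 177 CPM. WT 1 had the highest Alas2 and the lowest Alas1 level. Mb was at 10263 to 11172 CPM (log2 fold change -0.05 ± 0.13) and cytoglobin (Cygb) at 56.2 to 75.3 CPM.

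Among the 17 cytosolic genes that are abundant in red cells, which summed to 736, 798, 702 and 966 CPM, 15 were tested, 4 with a positive and 11 with a negative fold change in TG, and 0 were called. Tfrc, the transferrin receptor, was at 158, 251, 131 and 427 CPM, highest in TG 2, where haemoglobin was lowest. The 10 erythroid factor genes summed to 85.6 to 100.5 CPM, led by Lmo2, which endothelium also uses, with 3 positive, 3 negative and 0 called of 6 tested. The 10 genes that clear haemoglobin, heme and iron summed to 871 CPM in WT 1, 1241 in WT 2, 1267 in TG 1 and 912 in TG 2. The ferritin gene Fth1 and the receptor gene Lrp1 led this sum. Of the 9 tested, 4 were positive, 5 negative and 0 called. The single genes divided otherwise than the sum, with 6 of 10 highest in WT 1, 3 in TG 1 and 1 in WT 2. Hmox1 was at 14.1, 8.63, 9.59 and 11.9 CPM, and Hp at 5.16, 0.639, 1.63 and 1.92 CPM. Cardiomyocyte genes summed to 139882 CPM in WT 1, 185586 in WT 2, 219915 in TG 1 and 145612 in TG 2, and endothelial genes to 1617, 2048, 2003 and 1734 CPM. Both of these sums were lower in WT 1 and TG 2 than in WT 2 and TG 1. The immune sum was higher in WT 1 and TG 2. The part of these sums in the erythroid values was not tested. Ttn led the cardiomyocyte sum, at 61587 CPM in WT 1, 96808 in WT 2, 118062 in TG 1 and 63186 in TG 2. Atp2a2 ran from 12302 to 16781 CPM. Of the 12 cardiomyocyte genes, 7 were highest in TG 1, 3 in WT 2 and 2 in WT 1.

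The pattern of the erythroid genes over the 4 libraries was compared with that of 12726 other tested genes with symbols, by the Euclidean distance between centred log2 CPM values. The 4 tested members lay at 0.152 (Alas2) to 0.231 (Hbb-bt) from their own mean, and the median distance of the other genes was 1.74. Among the 10 nearest genes were Slfn8 (0.313), Serpina3c (0.521), Wisp2 (0.643), Gadd45g (0.709), Oasl1 (0.759), Acox2 (0.767), BC022687 (0.774), Chp2 (0.775) and Rtp4 (0.809). Slfn8 was at 7.65 CPM in WT 1, 1.85 in WT 2, 2.77 in TG 1 and 1.79 in TG 2. Likeness over 4 libraries is a description of these libraries, and the members define the profile they are compared with.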

How the data were processed

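Total RNA was extracted from left ventricular free wall with the NucleoSpin RNA kit, the TruSeq Stranded Total RNA kit served for library preparation, and a HiSeq2000 read the libraries, per the labels' protocols. Per the submitters' processing notes, reads were handled with STAR 2.3.0 and HTSeq 0.6.1 on build mm10, beside CASAVA 1.8.2, FastQC 0.10.0 and DESeq. The annotation release, the strand setting and the handling of reads that fit several genes are not given in the sources used here. Raw counts per Ensembl gene, as deposited by the authors, were used for every test. The authors also deposited a normalized signal per gene, equal to the counts divided by 1 factor per library (0.917 to 1.08), used here only as an alternative scaling. In R 4.3.3, edgeR 4.0.16 was run with filterByExpr (minimum count 10; 14189 of 38355 genes kept), TMM factors and its quasi-likelihood test; p-values were adjusted by the Benjamini-Hochberg method (threshold 0.05). Fits used all 4 libraries without a block. The steps were tested on simulated counts. DESeq2 1.42.0, limma-voom (limma 3.58.1), other scalings, filters, summed copies and leaving out each library were the alternatives. A prior count of 2 entered the log2 ratios within pairs. Each library is a separate mouse. With 2 mice per genotype, which also differ in sex and age, the tests could miss real differences. No wider conclusion is drawn from these 4 animals. Positions, lengths and transcripts came from GENCODE vM21 and promoter windows from RefSeq. The genes and lists were chosen with earlier results of these data known. Genes were named by rule: the 6 members, leading genes of each list by mean CPM, a few fixed markers and the 10 nearest by pattern. Myl2 and the Yam1 share were picked after their values were seen. Some genes that the rule names are not reported here.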

Additional observations from a re-analysis of the deposited data

Results flagged for a closer look

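In several gene lists, the summed level was lower in TG in 1 pair and higher in the other, beyond counting error, whereas the erythroid sum was lower in TG in both. With 1 mouse per genotype in each pair, the difference between pairs was not tested. The log2 ratio of TG to WT in males and then in females was -2.12 and 1.78 for genes of most leukocytes, -2.46 and 2.04 for macrophage and class II genes, -3.61 and 5.39 for lymphocyte genes, and -2.45 and 2.23 for all immune genes together. It was -1.35 and 1.39 for neutrophil genes. In the reverse direction, it was 0.65 and -0.35 for cardiomyocyte genes (led by Ttn) and 0.31 and -0.24 for endothelial genes. For genes that clear haemoglobin and iron, it was 0.54 and -0.44, a sum led by Fth1 and Lrp1 (1.01 and -0.84 for Lrp1). For Hmox1 of the same list it was -0.55 and 0.46. The cytosolic genes of red cells had ratios of -0.068 and 0.28, and the other globins, nearly all Mb counts, -0.12 and 0.03.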

How the results depend on the processing

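Leaving out WT 1 changed the sign of the fitted TG to WT difference, except for Hba-a1 (-0.098). The log2 fold change was then 0.025 for Hbb-bs, 0.35 for Hbb-bt, 0.038 for Alas2 and 0.047 for the summed level. With all libraries, the sum had -1.25. The fit without WT 1 set a 19-week female against TG mice of both sexes and ages. In the female pair, which does not hold WT 1, the summed log2 ratio was -0.36. For Hbb-bs, Hbb-bt, Alas2 and the sum, leaving out WT 2 gave the other end of each range, at -1.999, -1.64, -1.79 and -1.93. Over the other alternatives, all with 4 libraries or without another one, the fold changes stayed negative, with no call. The count of genes called between TG and WT was 0 (99 at an unadjusted p below 0.05), 3 with DESeq2, and 0 to 6 when 1 library was left out, the 6 being without WT 1. It was 0 with limma-voom (95 unadjusted). Between males and females it was 4, against 34 with DESeq2, 7 with every gene that had a count, 0 with genotype as a covariate, and 0 to 7 when 1 library was left out. With total counts in place of TMM, with or without the members in the total, the summed erythroid ratio was -1.78 in males (-1.61 with TMM) and -0.17 in females (-0.36 with TMM), and that of Hbb-bt in females was 0.029. The summed level of each library moved by less than the SD of its genotype under every scaling tried. Same-numbered libraries share sex and age, but no label ties them to a litter or day, and their deviations over 14189 genes had a correlation of -0.43. With the replicate block, 0 genes were called (61 unadjusted). In that fit, the log2 fold change was -1.02 for Hba-a1 (95% interval -2.04 to -0.0022) and -0.98 for Alas2 (-1.78 to -0.17). It was -1.03 for Hbb-bs (-2.19 to 0.14) and -0.72 for Hbb-bt (-1.69 to 0.25). With crossed pairs, chosen after seeing the data, 0 were called (303 unadjusted). Depth limits Slc4a1, at 2 to 18 counts per library.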
